A study of Mus musculus with 3 samples.

Results

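Lilrb4a, Msr1, Cd300lf, Mmp12 and Adam8 are 5 of the 32285 genes counted in this single-cell RNA series of mouse brain. They were selected on measured values. As a part of all microglial counts they were highest in the library made 24 h after the insult. They were lower in the naive library and the one made at 3 d. Their rise and fall between libraries is therefore a description here and carries no test. What the choice did not use is, within a library, which cells hold the genes, whether the same cells hold several, and which markers those cells carry.

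The series has 3 libraries of wild-type C57BL6J mice, 1 naive, 1 labelled 24h post stroke and 1 labelled 3d post stroke, where the insult was a transient ischaemic attack (TIA), a brief occlusion of the middle cerebral artery. The labels give neither sex nor age; the study describes male mice for these data and young adult mice in its methods. Brain tissue was taken with white matter and meninges removed and digested to single cells, and dead cells were depleted and then gated out by dye. Cells of 3 mice were pooled into each library, so there is 1 library per condition, no spread between animals can be given, and the naive library serves both comparisons. All intervals below are 95% intervals that cover counting error only, Clopper-Pearson for shares of cells and exact binomial for ratios. For a count of 0 the share it allows is given as 3 counts of the total.

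Microglia are the resident macrophages of the brain, held in a surveying state by signals from healthy tissue and marked in that state by Tmem119 and the purine receptor P2ry12. After injury they lower such markers and take on programmes of uptake, lysosomal digestion and lipid handling. Blood monocytes that enter injured brain, and macrophages that live at its borders, express many of the same injury genes but are told apart by markers such as Ccr2, Ly6c2, Mrc1 and Pf4.

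The 5 genes act at the surface of myeloid cells and in the matrix around them. Lilrb4a and Cd300lf encode receptors with immunoglobulin domains and inhibitory motifs in their tails, and Cd300lf binds lipids of dying cells. Msr1 is a class A scavenger receptor that takes up modified lipoproteins and debris. Mmp12 is macrophage elastase, a secreted matrix metalloproteinase, and Adam8 is a membrane metalloprotease and disintegrin of leukocytes. All 5 are annotated as protein_coding in GRCm38 and sit on 5 chromosomes. Lilrb4a (ENSMUSG00000112148) lies at chr10:51490956-51496611 on the plus strand and Cd300lf (ENSMUSG00000047798) at chr11:115116214-115133992 on the minus strand. Msr1 (ENSMUSG00000025044) lies at chr8:39581685-39642673 on the minus strand. Mmp12 (ENSMUSG00000049723) lies at chr9:7344381-7369499 on the plus strand and Adam8 (ENSMUSG00000025473) at chr7:139978932-139992562 on the minus strand.

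The naive library held 4804 cells and 37987228 unique molecular identifiers (UMIs, counted molecules), the 24 h library 1619 cells and 12919691 UMIs, and the 3 d library 5505 cells and 48636436 UMIs. Cells with at least 500 genes and at most 7% mitochondrial UMIs were kept: 4018 naive, 1225 at 24 h and 4781 at 3 d, with median depths of 7750, 8123 and 7868 UMIs. The 24 h library is the smallest, and 21.0% of its cells exceeded the mitochondrial limit, against 11.8% in the naive and 11.4% in the 3 d library. Cell barcodes shared between libraries were few: 3 between naive and 24 h, 8 between naive and 3 d and 4 between 24 h and 3 d. Microglia, 2 clusters in which all 14 microglial markers passed the marker thresholds, numbered 1025 naive, 283 at 24 h and 1275 at 3 d. Their median depth was 7862, 9452 and 7828 UMIs, so the 24 h microglia were also the deepest.

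Each gene was found in a minority of microglia in every library. Lilrb4a was in 16 naive cells (1.56%, interval 0.895 to 2.52%), 47 at 24 h (16.6%, 12.5 to 21.5%) and 53 at 3 d (4.16%, 3.13 to 5.40%). Msr1 was in 16 (1.56%), 34 (12.01%, 8.47 to 16.4%) and 60 (4.71%, 3.61 to 6.02%). Cd300lf was in 9 (0.878%), 32 (11.3%, 7.86 to 15.6%) and 64 (5.02%, 3.89 to 6.37%). For these 3 receptors the 3 d share lay between the naive and the 24 h share. The proteases were rarer. Mmp12 was in 1 naive cell (0.0976%), 12 at 24 h (4.24%, 2.21 to 7.29%) and 1 at 3 d (0.0784%), and Adam8 in 3 (0.293%), 18 (6.36%, 3.81 to 9.87%) and 15 (1.18%, 0.660 to 1.93%).

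**Figure D1:**
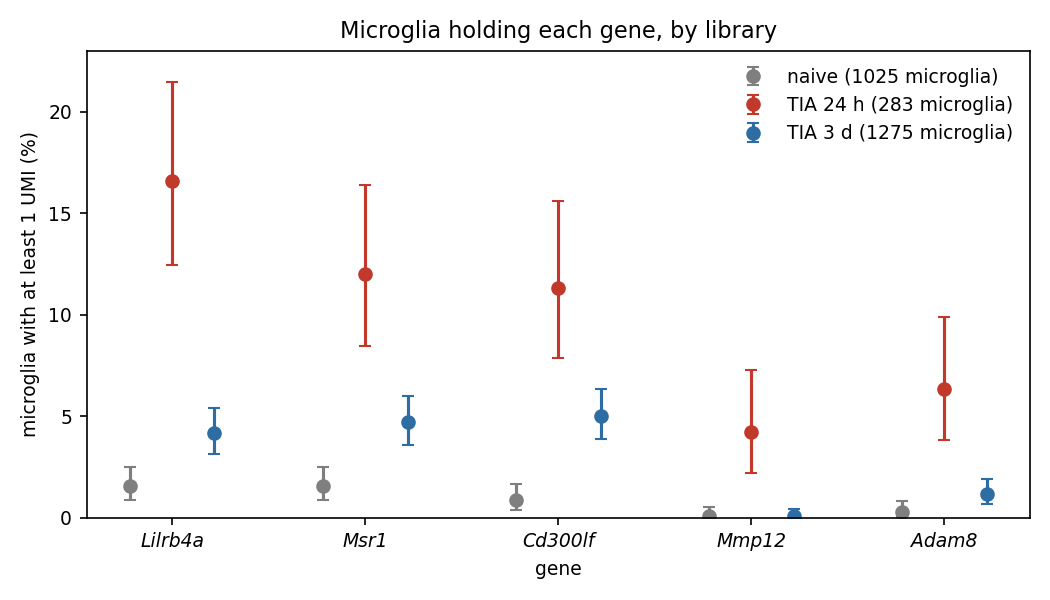
Percent of microglia with at least 1 UMI of each gene in the naive, 24 h and 3 d libraries; points are shares and lines are 95% Clopper-Pearson intervals (counting error only). At 24 h the shares run from 4.24% for Mmp12 to 16.6% for Lilrb4a.

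Deeper cells show more genes, so each microglial cell was also reduced to 2000 UMIs, with the chance of keeping a gene computed exactly and 15 naive, 4 24 h and 10 3 d cells under that depth left out. The share with Lilrb4a was then 0.371% naive, 7.39% at 24 h and 1.10% at 3 d, against 1.56, 16.6 and 4.16% unreduced. Msr1 gave 0.398, 4.43 and 1.25% and Cd300lf 0.264, 2.72 and 1.44%. Mmp12 gave 0.00952, 1.96 and 0.0201% and Adam8 0.0501, 1.97 and 0.285%. These shares come from the counts that chose the genes, so nothing is read from their order.

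The cells of a library did not hold the genes evenly. At 24 h the 5 cells with most UMIs gave 88.9% of the 117 Mmp12 UMIs, with 58 in a single cell, and 13 UMIs were left without them. The same share was 53.6% for Adam8, 46.6% for Msr1, 39.2% for Lilrb4a and 31.9% for Cd300lf. Cd300lf was the most evenly spread of the 5: 22 of its 32 cells had a single UMI and none had more than 5. Summed over microglia, UMIs in the naive, 24 h and 3 d libraries were 19, 286 and 81 for Lilrb4a, 20, 118 and 82 for Msr1 and 13, 47 and 97 for Cd300lf. For Mmp12 they were 1, 117 and 1 and for Adam8 3, 56 and 16.

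Counted per 1e+06 microglial UMIs (CPM), the levels at naive, 24 h and 3 d were 2.19, 96.8 and 7.18 for Lilrb4a, 2.30, 39.9 and 7.27 for Msr1, and 1.498, 15.9 and 8.60 for Cd300lf. Mmp12 had 0.115, 39.6 and 0.0886 CPM and Adam8 0.346, 18.9 and 1.42 CPM. All 5 were thus highest at 24 h. The log2 ratio of 24 h to naive was 5.47 (4.80 to 6.22) for Lilrb4a, 4.11 (3.42 to 4.88) for Msr1, 3.41 (2.50 to 4.42) for Cd300lf, 8.42 (5.92 to 13.74) for Mmp12 and 5.78 (4.16 to 8.10) for Adam8. At least 2-fold above naive at 24 h with 30 UMIs or more stood 5 of the 5 genes, and 2.52% of the 11680 genes tested. This contrast chose the genes, so nothing is read from that count. With the unnamed cluster 11, described below, counted as microglia (chosen after seeing the data), the ratio was 3.47 for Lilrb4a, 3.14 for Msr1 and 3.94 for Adam8.

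The 3 d library also served to choose the genes, so its ratios are given as values only. The log2 ratio of 3 d to naive was 1.71 (0.98 to 2.52) for Lilrb4a, 1.66 (0.94 to 2.44) for Msr1 and 2.52 (1.68 to 3.48) for Cd300lf. Those 3 were the members with 30 UMIs or more in that comparison and all stood at least 2-fold above naive, beside 1.6% of 12727 genes. Adam8 had 2.04 (0.23 to 4.46) on 16 and 3 UMIs, and Mmp12, with 1 UMI in each library, has no ratio. Against 3 d, the 24 h level was at least 2-fold higher for 4 of 5 members and 1.47% of 12113 genes, and Mmp12 reached 30 UMIs through its 24 h count alone. The exception was Cd300lf at 0.89 (0.35 to 1.40). Lilrb4a had 3.75, Msr1 2.46, Mmp12 8.80 (6.30 to 14.12) and Adam8 3.74.

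The microglia formed 2 clusters that held the genes differently, although cluster 8 has Mmp12 and Lilrb4a among its leading genes and 4 members were among the features clustered, so the split is no finding about them. Cluster 8 made up 11.5% of naive, 22.97% of 24 h and 21.6% of 3 d microglia, so the pooled levels also carry this make-up. Cluster 8, led also by Cxcl10, Ccl12, Tnf and Lpl, gave 254 of the 286 Lilrb4a UMIs at 24 h, 104 of 118 Msr1, 117 of 117 Mmp12 and 46 of 56 Adam8. It gave only 12 of 47 Cd300lf UMIs, the other 35 being in cluster 0. Within cluster 0 alone the log2 ratio of 24 h to naive for Cd300lf was 3.41 (2.43 to 4.49), and for Msr1 it was 1.86 (0.69 to 3.04), with 0.38 (-0.60 to 1.28) for 24 h to 3 d, a difference not detectable at this depth. For Cd300lf within cluster 8 the 24 h to 3 d ratio was 0.28 (-0.81 to 1.29), likewise not detectable, and in cluster 0 it was 1.12 (0.48 to 1.73). For Msr1 in cluster 8 it was 3.11 (2.56 to 3.68).

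Other named classes held few UMIs of the genes, and free RNA in droplets gives some to any cell. Astrocytes, which should lack them, numbered 239 at 24 h and were deeper than microglia (median 11495 against 9452 UMIs). Lilrb4a was in 2 of them (0.837%), Msr1 and Adam8 in 1 each and Cd300lf and Mmp12 in 0, which allows a share of up to 1.26% of cells with a UMI. In naive astrocytes (894 cells, median depth 9334 UMIs against 7862) Lilrb4a and Msr1 were in 0 cells, Cd300lf in 1 and Adam8 in 4. Oligodendrocytes held Cd300lf in 4 of 232 naive cells (1.72%) and 6 of 250 at 3 d (2.40%), at median depths of 13417 and 12901 UMIs. The naive microglial share of Cd300lf, 0.878% at 7862 UMIs, is below that of these deeper cells, and above the 0.126% of naive neurons (median 7147 UMIs) and 0.112% of naive astrocytes. Adam8 in naive mice was found in 4.02% of neural progenitors (median 15570.0 UMIs) against 0.293% of microglia (7862). Of its 37 naive UMIs the unnamed cluster 11 held 10, progenitors 9, neurons 7, astrocytes 4 and microglia 3. Mmp12 had 0 UMIs in every named class other than microglia in all 3 libraries.

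The share of all UMIs of a gene that lay in microglia differed between libraries. The genes were chosen for their 24 h level in microglia, so nothing is read from the order of the libraries. For Lilrb4a the share was 17.9% naive, 77.7% at 24 h and 27.8% at 3 d, and for Adam8 it was 8.11, 67.5 and 12.5%. For Msr1 the share was 31.3, 57.8 and 46.3% and for Cd300lf 59.1, 70.1 and 48.7%. For Lilrb4a and Msr1 most of the rest lay in cluster 11, left unnamed because all 14 microglial markers passed in it while its leading genes were those of neutrophils and monocytes (S100a8, S100a9, Chil3) or of border macrophages (F13a1). It held 73.6% of naive Lilrb4a UMIs, 18.8% at 24 h and 66.0% at 3 d, and 67.2, 32.4 and 48.6% of Msr1 UMIs. Cluster 11 had 60 naive cells, 22 at 24 h and 107 at 3 d, at median depths of 20801, 14705 and 40721 UMIs. The part of its cell number and depth in these shares was not tested. Mmp12 at 24 h lay in microglia for 90.7% of 129 UMIs, while at 3 d 22 of its 23 UMIs were in cluster 11. Those 22 came from 3 of its 107 cells, and all 3 held Tmem119 and P2ry12.

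The same microglia often held several of the genes at 24 h. At least 1 was in 41 naive cells (4.0%), 82 at 24 h (29.0%) and 166 at 3 d (13.02%). With 2 or more there were 4 naive cells (0.390%, 0.106 to 0.996%), 29 at 24 h (10.2%, 6.97 to 14.4%) and 23 at 3 d (1.80%, 1.15 to 2.69%). A choice of genes for their 24 h level by itself raises the share of cells with several at 24 h. Nothing is therefore read from the order of the libraries. With cluster 11 counted as microglia the shares with 2 or more were 1.20% naive, 12.8% at 24 h and 4.27% at 3 d. With 3 or more there were 0 naive cells, which allows up to 0.293%, 18 at 24 h (6.36%) and 3 at 3 d (0.235%). With 4 or more there were 12 cells at 24 h and 1 at 3 d, and 2 cells at 24 h held all 5. The 29 cells at 24 h gave 85.1% of the UMIs of the 5 genes in microglia of that library, and the 23 cells at 3 d gave 30.7%.

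Depth went with this count, and its part in the result was not tested. The 29 cells had a median of 16756 UMIs, against 9887 in the 53 cells with exactly 1 gene and 8830 in the 201 with none. At 3 d the medians were 13981 UMIs with 2 or more and 7668 with none. Reduced to 2000 UMIs a cell, 3.66% of microglia at 24 h, 0.120% at 3 d and 0.0193% naive would hold 2 or more. Among microglia with 9000 UMIs or more, a depth chosen after seeing the data, the share was 1.20% naive (4 of 333), 16.9% at 24 h (27 of 160, 11.4 to 23.6%) and 4.65% at 3 d (20 of 430), at like median depths of 10618, 11381 and 11225 UMIs. The order of the libraries is here too no finding, given how the genes were chosen. None of the cells with 2 or more genes, in any library, was called a doublet by Scrublet, which called 8, 1 and 8 microglia in the naive, 24 h and 3 d libraries.

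At 24 h Mmp12 was found in cells that held other genes too. All 12 of its holders held Lilrb4a, against 12.9% of the other microglia, 11 of 12 held Msr1 (8.49% of the others) and 11 of 12 held Adam8 (2.58% of the others). The only naive and the only 3 d holder of Mmp12 held none of the others. Of the 18 Adam8 holders 15 held Lilrb4a (83.3 against 12.1%), and of the 47 Lilrb4a holders 21 held Msr1 (44.7 against 5.51%). Those 4 genes formed the most frequent combination, alone together in 8 cells, and with Cd300lf in 2 more. At 3 d pairs of receptors led: Msr1 with Cd300lf in 7 cells, Lilrb4a with Msr1 in 6 and Lilrb4a with Cd300lf in 5. Of the 32 Cd300lf holders at 24 h 10 held Lilrb4a (31.3 against 14.7%), 10 held Msr1 (31.3 against 9.56%), 2 held Mmp12 (6.25 against 3.98%) and 4 held Adam8 (12.5 against 5.58%). Holders were deeper than the other microglia for each gene, with medians of 17847 against 9342 UMIs for Mmp12, 12148 against 9290.0 for Msr1 and 11198 against 9335 for Cd300lf.

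**Figure D2:**
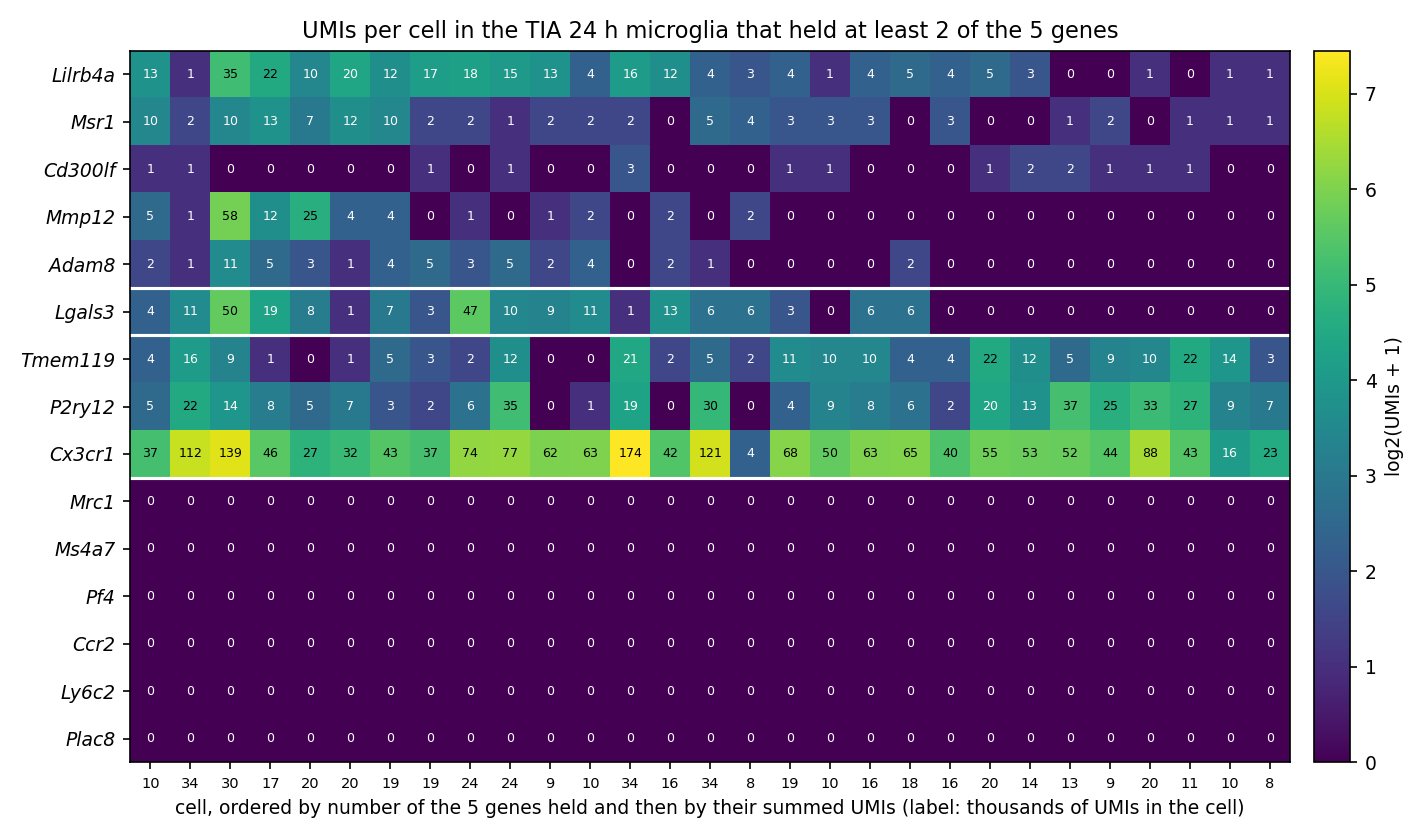
UMIs of the 5 genes, Lgals3, microglial markers and macrophage or monocyte markers (vertical) in each of the 29 microglia of the 24 h library with 2 or more of the genes (horizontal, labelled with the depth of the cell); colour is log2(UMIs + 1). All 29 cells hold Cx3cr1, 26 hold Tmem119, 26 hold P2ry12, and none holds Mrc1, Pf4, Ms4a7, Ccr2, Ly6c2 or Plac8. Other markers of the same lists, not drawn, had UMIs in these cells, among them Stab1 (138), Lyz2 (106), Fn1 (28) and Folr2.

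Most cells with several genes held UMIs of microglial markers. Their clusters were named by a marker list that includes Tmem119 and P2ry12, so a high share was set in part by that naming. Either gene was in 99.6% of all 24 h microglia. With cluster 11 counted as microglia, chosen after seeing the data, 89.7% of the 24 h cells with 2 or more genes held either. Of the 29 at 24 h, 28 (96.6%, 82.2 to 99.9%) held Tmem119 or P2ry12, 24 (82.8%) held both, and 29 of 29 held Cx3cr1. Of the 201 cells with none of the genes, 201 held Tmem119 and 197 P2ry12. Of the 18 cells with 3 or more genes 17 held Tmem119 or P2ry12 and 13 held both, and at 3 d 23 of 23 cells with 2 or more genes held both. A single UMI is a weak sign, since Tmem119 or P2ry12 was also in 22.2% of astrocytes (median depth 11495 UMIs) and 6.94% of oligodendrocytes (16151 UMIs) at 24 h. At 3 UMIs or more of both genes summed stood 25 of the 29 cells, 198 of the 201 and 2.51% of these astrocytes, and 3 of the 29 had only 1 or 2. The 32 Cd300lf holders at 24 h all held both, whereas 9 of the 12 Mmp12 holders held Tmem119 and 9 held P2ry12.

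The level of these markers was lower in the same cells. At 24 h Tmem119 stood at 429 CPM in cells with 2 or more genes and fell by 1.34 on the log2 scale (-1.55 to -1.14) from the cells with none, and P2ry12 stood at 699 CPM and fell by 1.48 (-1.64 to -1.32). Reduced to 2000 UMIs, an expected 10.2 of 279 cells would still hold 2 or more genes. Of these 58.5% would hold Tmem119 or P2ry12, against 99.1% of the cells then with none. These groups are set after the reduction and are not the 29 and 201 cells. The median mitochondrial share at 24 h was 2.33% of UMIs in cells with 2 or more genes and 1.48% in cells with none, and its part in the result was not tested. In Mmp12 holders Tmem119 was at 194 CPM against 1020 in the other microglia and P2ry12 at 327 against 1812, and in Cd300lf holders they were at 765 against 993 and 1303 against 1771. The contrast is in part one of clusters: 23 of the 29 cells lay in cluster 8, and of the 201 cells 171 lay in cluster 0 and 30 in cluster 8. Inside cluster 8, compared after seeing the data (23 and 30 cells, median depths 18445 and 9469 UMIs), Tmem119 fell by 1.53 (-1.83 to -1.25) and P2ry12 fell by 1.90 (-2.15 to -1.66). Inside cluster 0, with 6 and 171 cells, the differences were -0.42 (-0.79 to -0.08) and -0.07 (-0.31 to 0.15). At 3 d, over both clusters, the log2 differences were -0.35 for Tmem119 and -0.47 for P2ry12. Inside cluster 0 at 3 d, with 9 and 888 cells, they were 0.10 (-0.17 to 0.35) and -0.30 (-0.48 to -0.12). Inside cluster 8 at 3 d, with 14 and 221 cells, they were -0.50 (-0.78 to -0.24) and -0.35 (-0.51 to -0.19). Of the 4 naive cells with 2 or more genes, 3 held Tmem119 or P2ry12 and 2 held both.

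Over the list of 16 homeostatic genes, 5 were at least 2-fold lower at 24 h in cells with 2 or more genes than in cells with none and 0 were higher, with a median log2 ratio of -0.78. Of all 8479 genes tested in that comparison 9.77% were lower and 7.16% higher, with a median of -0.11. The 5 were Tmem119, P2ry12, the lectin Siglech (-1.93), the fructose transporter Slc2a5 (-1.94) and the selectin ligand Selplg (-1.60). Inside cluster 8 alone 5 of 16 were lower, beside 10.5% of 4493 genes, and inside cluster 0 1 of 16, beside 10.1% of 7447. The fractalkine receptor Cx3cr1 had -0.46 and Fcrls 0.01. At 3 d 0 of the 16 were 2-fold lower or higher, with a median of -0.26, beside 8.8% lower and 5.79% higher of all 11385 genes and a median of 0.00.

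The list of disease-associated microglia genes went the other way. At 24 h 9 of its 14 genes with enough UMIs were at least 2-fold higher in cells with 2 or more of the 5 genes, with a median of 1.23, beside 7.16% of all genes. The lectin Lgals3 had 221 UMIs in those cells and 0 in cells with none, at least 8.08 on the log2 scale, and the lipase Lpl had 507 against 8 UMIs (7.86). The matrix protein Spp1 had 39 against 2 UMIs (6.16), but in only 2 of the 29 cells. The cathepsin Ctsb had 1.92, the growth factor Csf1 1.85, the tetraspanin Cd63 1.57, the chemokine Ccl6 1.23, the cystatin Cst7 1.21 and the lysosomal Cd68 1.16. The lipoprotein Apoe fell by 2.12. Inside cluster 8 alone, which has Lpl among its leading genes, 7 of 13 were higher, beside 10.8% of genes, and Lpl had 503 against 2 UMIs. Inside cluster 0 alone 0 of 10 were higher, beside 9.8% of genes, and 2 were lower, beside 10.1%. Lpl (4 against 6 UMIs, 3.58, 1.31 to 5.65) and Lgals3 (10 against 0 UMIs, at least 5.90) were too low there to be counted. At 3 d 6 of 16 were higher, beside 5.79% of all genes, with a median of 0.69: Spp1 (5.46, in 4 of the 23 cells), Lgals3 (5.55, in 5), the receptor kinase Axl (3.39), Lpl (3.07), Cst7 (2.89) and the lipid carrier Fabp5 (1.44), while Apoe had 1.00, under 2-fold before rounding. Inside cluster 0 at 3 d 2 of 12 were higher and 2 lower, beside 10.9 and 10.5% of genes, with a median of 0.30. Inside cluster 8 at 3 d 5 of 15 were higher and 0 lower, beside 4.58 and 7.1% of genes, with a median of 0.34.

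**Figure D3:**
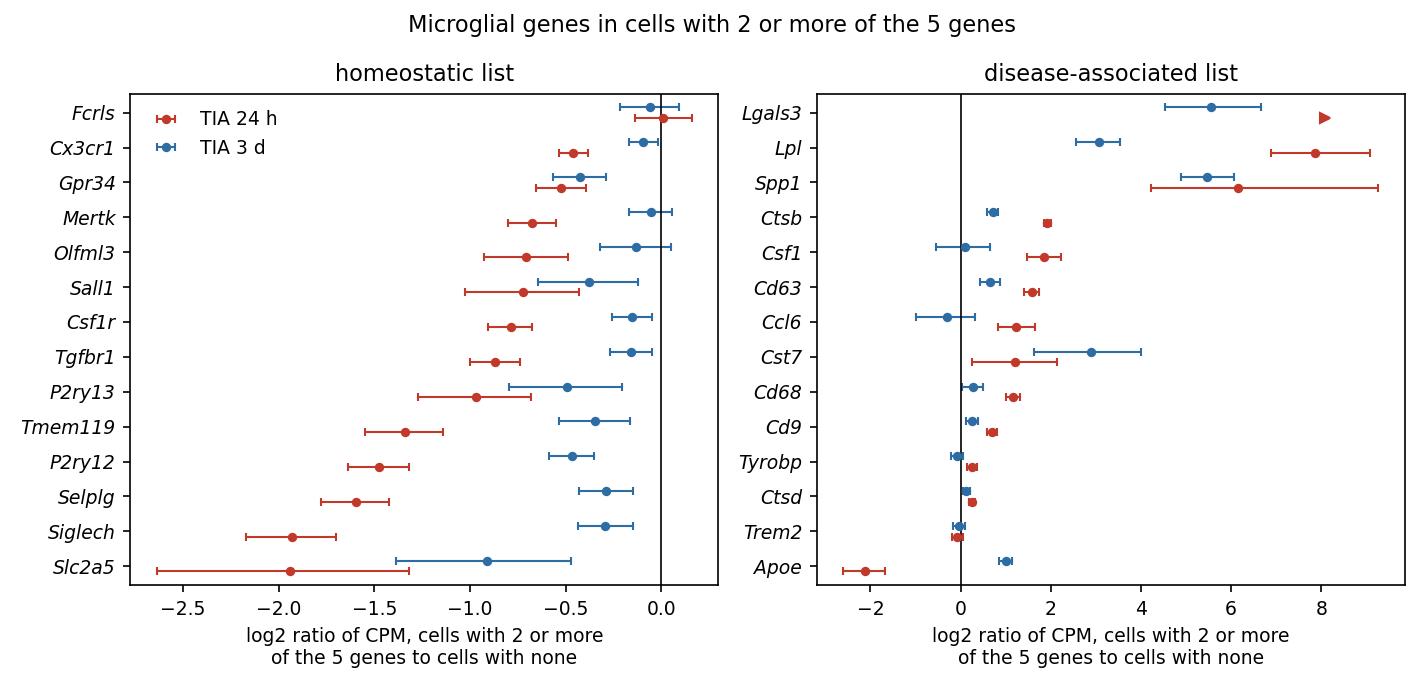
Log2 ratio of CPM (horizontal) between microglia with 2 or more of the 5 genes and microglia with none, at 24 h (red) and 3 d (blue), for reported homeostatic and disease-associated genes (vertical) with at least 30 UMIs at 24 h; lines are 95% intervals (counting error only) and the triangle is a lower bound. Tmem119 is at -1.34 at 24 h and -0.35 at 3 d, and Lpl at 7.86 and 3.07.

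Most markers of border macrophages and monocytes, but not all, were at 0 in the 29 cells at 24 h. Of 9 border macrophage markers 2 had a UMI, 145 UMIs in all (284 CPM, 250 in cells with none), of which Stab1 gave 138 and Folr2 7 (in 3 cells, 0 UMIs in cells with none), and Mrc1, Pf4, Cd163, F13a1, Lyve1, Ms4a7 and Cbr2 were at 0. Of 10 monocyte markers 3 had a UMI, 135 in all (264 CPM, 142 in cells with none), of which lysozyme Lyz2 gave 106 and fibronectin Fn1 28 (27 in 1 cell), which was at least 2-fold higher than in cells with none, and Ly6c2, Ccr2, Plac8 and Chil3 were at 0. Stab1 was held by 80.6% of all 24 h microglia, so it does not set macrophages apart here. Of 9 neutrophil markers 2 had a UMI, 96 in all (188 CPM, 448 in cells with none), of which Csf3r, held by 92.2% of the microglia, gave 95, with S100a8 and S100a9 at 0. Of 10 dendritic cell markers 4 had a UMI, 38 in all (74.4 CPM, 26.7 in cells with none), of which Cd74 gave 26, with Flt3, Xcr1 and Ccr7 at 0. The part of these lists in the result was not tested.

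The 4 naive cells with several genes were mixed. Tmem119 and P2ry12, with 0 UMIs of Mrc1, Pf4, Ccr2 and Plac8, were in 2 of them. Of the others, 1 held 19 Mrc1 and 13 Pf4 UMIs with 0 of Tmem119 and 1 of P2ry12, and 1 held 47 Plac8 and 3 Ccr2 UMIs with 0 of Tmem119, P2ry12 and Cx3cr1. Their list levels were 803 CPM for border macrophages (187 in cells with none), 1873 for monocytes (145), 306 for neutrophils (406) and 24943 for dendritic cells (29.6), the last led by 462 Cd74 UMIs. At 3 d the 23 cells had 283 CPM for border macrophages (210 in cells with none), 335 for monocytes (144), 518 for neutrophils (442) and 510.1 for dendritic cells (33.5). The monocyte genes Plac8 (3.86) and Lyz2 (1.08) and the macrophage gene Mrc1 (1.43) were at least 2-fold higher in them than in cells with none. At 2 UMIs or more over 35 markers of the 4 lists (Lyz2, Cd74 and Itgax not counted) stood 25 of the 29 cells at 24 h (86.2%) and 187 of the 201 with none (93.03%). Over 33 markers, without Csf3r and Stab1 as well (left out after seeing the data), there stood 2 of 4 naive cells. So did 5 of the 29 cells at 24 h (17.2%, 5.85 to 35.8%), and at 3 d 8 of the 23 (34.8%). Among cells with none of the 5 genes the shares were 5.28, 5.47 and 8.75%. Single cells gave much of these levels: 1 held 698 of the 932 UMIs of the 33 markers in the naive cells, and 1 held 99 of 136 at 3 d.

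All genes, in the lists or not, were also ranked between the cells at 24 h. By log2 ratio the 15 highest in cells with 2 or more genes included, after Lgals3 and Lpl, the late endosome GTPase Rab7b (7.01), the receptor Cd72 (6.40), Lilr4b (6.18), Pld5 (6.09), the chemokine Cxcl10 (6.03), the helicase Hells (5.83), the lectin Lgals1 (5.82) and vimentin Vim (5.49). The others were Ifi207 (4.61), Fxyd5 (4.39), the endocytic adaptor Dab2 (4.37), Rai14 (4.36) and the chemokine Cxcl2 (at least 5.42, with 97.1% of its UMIs in 5 cells). Of these 15, 13 were also higher at 3 d, where 50.1% of all genes were higher, with Cxcl10 at 6.21. The 10 ranked lowest, with 0.5 UMIs added to each sum so that genes at 0 can be ranked, held the neuronal adhesion gene Lsamp (1 against 165 UMIs, -5.49) and the heat shock gene Hspa1b (2 against 317 UMIs, -5.43). The other 8 had 0 UMIs in the cells with 2 or more, and their ratios are bounds that give no order among them or against ratios such as that of Apoe: Mrc1 and Fbxo32 (each at most -2.09), the bridging protein Mfge8 (at most -1.97), Kif9 (at most -1.82) and Zfyve28, Ptprz1, Iqcn and Plet1os (each at most -1.79). Mrc1 was in 10.9% of the 201 cells with none of the genes. Of these 10, 6 were lower at 3 d and 4 higher, among the latter Mrc1 at 1.43 (0.52 to 2.23). Over the 9 astrocyte markers the 24 h cells with 2 or more genes had 149 CPM and cells with none 513 (log2 -1.79, -2.14 to -1.45). Slc1a3 was the most abundant in both and Gja1, Gfap and Slc7a10 were at 0 in the former. At 3 d the levels were 424 and 501 CPM, and naive 268 and 359, and the part of these markers in the result was not tested.

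Few relatives of the 5 genes reached a 2-fold higher level in microglia at 24 h. Of 9 other leukocyte Ig-like and CD300 receptors tested against naive 1 was at least 2-fold higher, Lilr4b (3.93, with 20, 104 and 22 UMIs in the naive, 24 h and 3 d libraries), and the list's median was -0.12. Over all genes 2.52% were called higher and the median was 0.06. The counts of 0 or 1 in the families here and below come from short lists, and nothing is read from them beside that share. Sirpa, the most abundant, had -0.14, Cd300c2 0.04, Lilra5 0.51 and Clec4a2 -0.76. Lilr4b lies 4252 bases from Lilrb4a, and 37.0% of windows of 90 bases in the last 500 bases of Lilrb4a are shared between them, so counts of the pair are uncertain one against the other. Partners of inhibitory receptors had 0 of 6 higher with a median of -0.04, among them the phosphatases Inpp5d (0.18) and Ptpn6 (-0.32).

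Of 6 other scavenger receptors 0 were 2-fold higher at 24 h (median 0.39), with Cxcl16 at 0.71, Cd68 at 0.52 and Stab1 at 0.50. Of 4 other matrix metalloproteinases and inhibitors 0 were higher (median -0.08), with Timp2 at -0.13 and Mmp14 at -0.04, and Mmp3 and Mmp10, neighbours of Mmp12 on its chromosome, had 0 UMIs in microglia, as had Mmp9. Of 6 other ADAM proteases 0 were higher (median 0.13), with Adamts1 at 0.86, Adam10 at 0.13 and Adam17 at -0.18. Transcription factors of macrophages had 0 of 15 higher and a median of 0.16. Homeostatic genes had 0 of 16 lower, beside 2.45% of all genes lower, and a median of -0.28. Disease-associated genes had 5 of 17 higher, beside 2.52% of all genes, and a median of 0.52: Lgals3 (5.65), Spp1 (4.95), Lpl (3.93), Cst7 (2.55) and the integrin Itgax (1.55), while Fabp5 fell by 1.82. The Spp1 ratio rests on 42 UMIs in 5 microglia at 24 h and 4 UMIs in naive microglia. From 3 d to naive Spp1 had 5.05.

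Over 7 named cell classes in 3 libraries, 21 profiles in all, the non-member genes most like the mean of the 5 were Lilr4b (Pearson r 0.985), Cxcl2 (0.981), 9930022D16Rik (0.979), Gm34084 (0.978) and Gm2396 (0.967), of 13024 genes. The profiles share libraries and are not independent, so r is a description. The members were chosen for their 24 h level in microglia, which is in these profiles, so nothing is read from the likeness. Among the members r was highest for Lilrb4a with Msr1 (0.992) and lowest for Cd300lf with Adam8 (0.786).

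Promoter sequences are shown for Mmp12, whose 12 holders at 24 h all held Lilrb4a, and for Cd300lf, of whose 32 holders 10 did. RefSeq windows (GRCm38.p6, 250 bases before to 50 after a start) matched 3 of the 5 members, Mmp12 with a pair of starts, Cd300lf and Adam8. Both strands were searched for 6 motifs, and of all 32851 promoters 35.4% hold PU.1 (AGGAAG), 7.81% AP-1 (TGANTCA), 10.8% C/EBP (TTGCNNAA), 3.77% the MITF/TFE3 E-box (TCACGTG), 5.91% the hypoxia element (ACGTGC, which overlaps the E-box by ACGTG) and 8.30% STAT (TTCNNNGAA). Capitals mark the matches: a PU.1 and a C/EBP match at chr9:7344147-7344446 and an AP-1 match at chr9:7347124-7347423, both on the plus strand, and a pair of PU.1 matches at chr11:115133943-115134242 on the minus strand. The Adam8 window, chr7:139992513-139992812 on the minus strand, holds a C/EBP match. A match is a description of letters only.
Mmp12 first start: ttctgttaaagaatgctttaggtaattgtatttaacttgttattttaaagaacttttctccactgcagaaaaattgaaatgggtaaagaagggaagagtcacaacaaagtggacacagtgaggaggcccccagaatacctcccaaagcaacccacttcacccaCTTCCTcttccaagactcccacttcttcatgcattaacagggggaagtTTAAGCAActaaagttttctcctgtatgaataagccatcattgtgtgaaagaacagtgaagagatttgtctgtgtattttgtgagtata
Mmp12 other start: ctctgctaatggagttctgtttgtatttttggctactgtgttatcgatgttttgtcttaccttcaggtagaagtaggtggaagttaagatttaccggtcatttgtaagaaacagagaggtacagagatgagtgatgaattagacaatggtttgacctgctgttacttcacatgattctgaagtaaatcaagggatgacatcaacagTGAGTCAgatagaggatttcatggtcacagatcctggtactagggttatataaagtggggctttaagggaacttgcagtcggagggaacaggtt
Cd300lf: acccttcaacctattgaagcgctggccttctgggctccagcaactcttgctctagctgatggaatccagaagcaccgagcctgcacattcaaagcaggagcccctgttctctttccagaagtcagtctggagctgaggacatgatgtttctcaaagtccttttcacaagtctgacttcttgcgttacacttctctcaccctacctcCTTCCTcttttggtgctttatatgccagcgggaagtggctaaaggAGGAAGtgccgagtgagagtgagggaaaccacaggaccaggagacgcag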

How the data were processed

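Single-cell RNA libraries (10x, 3′) of 1 naive, 1 24 h and 1 3 d pool were used as raw UMI counts that the authors deposited, made with Cell Ranger (3.1.0 in the submitters' notes, 7.1.0 in the matrix header). Cells with at least 500 genes and at most 7% mitochondrial UMIs were kept. Seurat 5.3.0 in R 4.3.3 clustered all libraries together without integration (log normalization, 2000 variable features, UMI count and mitochondrial percent regressed, 20 components, resolution 0.5). A cluster was named when at least 3 markers of 1 type were in at least 10% of its cells and at least 2-fold above all other cells. It stayed unnamed when its 10 leading genes held more markers of another type, or when it was shallow and none of its type's markers was among them. Counts, shares and ratios were computed with Python 3.11.15, numpy 2.4.6, scipy 1.17.1 and pandas 2.3.3. A gene was held at 1 UMI. Ratios are log2 of CPM, a ratio was called at 2-fold with at least 30 UMIs over both groups, and a group at 0 was set to 3 UMIs. Scrublet in scanpy 1.11.5 called doublets (3.04, 0.490 and 2.93% of kept cells in the naive, 24 h and 3 d libraries), which were kept. Reduction to 2000 UMIs was computed exactly.

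Named genes are the members, Tmem119 and P2ry12, the most abundant and most differing genes of each list, the 15 highest and 10 lowest ratios (0.5 UMIs added to each sum, as for calls and medians) between cells with 2 or more members and cells with none at 24 h (a UMI in at least 5 cells of the higher group), the 5 most like profiles (10 CPM added before log2) and up to 6 genes a family. Other genes were named after their values were seen. Values of some list genes, counted in the lists, are not reported here. The members and lists were chosen with earlier results of these data known. Alternatives were the cell filter, resolution, features, regression, doublets, unnamed clusters, cells with markers of other types, depth, UMIs to hold a gene and the call limits. No test across libraries was possible with 1 library per condition.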

Additional observations from a re-analysis of the deposited data

Results flagged for a closer look

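Cells that the comparisons in microglia do not use held several of the 5 genes above their naive level. In unnamed cluster 11, which has microglial markers and leading genes of neutrophils and monocytes, 22 cells at 24 h had Lilrb4a at 152.6 CPM (69 UMIs, naive 47.7 CPM), Msr1 at 146.0 CPM (66 UMIs, naive 26.3), Cd300lf at 28.76 CPM (13 UMIs, naive 0.612) and Mmp12 at 17.7 CPM (8 UMIs, all in 1 cell, naive 0.612). Its 107 cells at 3 d had Cd300lf at 17.45 CPM (88 UMIs in 36 cells) and Adam8 at 17.25 CPM (87 UMIs in 20 cells, naive 6.12), while Lilrb4a (38.1 CPM) and Msr1 (17.1 CPM) were there below their naive levels.

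In unnamed cluster 12, led by haemoglobin genes, 9 cells at 24 h had Lilrb4a at 162.5 CPM (8 UMIs), Msr1 at 223.4 CPM (11 UMIs), Cd300lf at 81.25 CPM (4 UMIs), Mmp12 at 81.25 CPM (4 UMIs) and Adam8 at 121.9 CPM (6 UMIs), with 0 UMIs of each in the naive cells. A single cell gave all the Msr1 and Cd300lf UMIs, 7 of the 8 Lilrb4a and 5 of the 6 Adam8 UMIs. In unnamed cluster 9, shallow cells, 24 cells at 24 h had Msr1 at 101.7 CPM (6 UMIs in 2 cells) and Adam8 at 84.78 CPM (5 UMIs in 3 cells), each at 1.54 CPM in naive cells. The 394 cells of the 24 h library that failed the cell filter had Msr1 at 4.479 CPM and Mmp12 at 4.479 CPM, each from 5 UMIs in 2 cells, against 0 UMIs in the naive library. These counts are small and no test was made.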

How the results depend on the processing

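Over all alternatives 133 values stayed within the main value's counting interval or, for a count of genes, within 1.5 times the main count, 48 moved and 0 reversed. The other cell filter, resolutions, features, regression and doublet settings moved none of these values, all of the 24 h library or its ratio to naive. Without regression the share with 2 or more members at 3 d, outside that set, was 2.79% (37 cells) against 1.80%. The share with Mmp12 at 3 d was then 0.301% against 0.0784%. The cause of a move was not tested except where said.

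With the unnamed clusters that carry microglial markers added, the log2 ratio of 24 h to naive was 3.41 for Lilrb4a, 3.23 for Msr1 and 4.004 for Adam8, and with cluster 11 alone added, an alternative chosen after seeing the data, 3.47, 3.14 and 3.94. With cells holding 2 or more macrophage, monocyte, neutrophil or dendritic marker UMIs left out, 18 microglia remained at 24 h and 137 naive, since most microglia hold Csf3r or Stab1. The shares at 24 h were then 22.2% for Lilrb4a, 22.2% for Msr1, 5.56% for Cd300lf, 16.7% for Mmp12 and 11.1% for Adam8. The log2 ratios were 7.35 for Lilrb4a and 6.42 for Msr1, and bounds for Mmp12 (at least 3.69) and Adam8 (at least 3.96), whose naive count was 0. Cd300lf had no ratio, both counts being at or under 3 UMIs. Cells with 2 or more members were 22.2%, and 75.0% of these held Tmem119 or P2ry12. Without counting Csf3r and Stab1, chosen after seeing the data, 264 microglia remained at 24 h, 9.09% had 2 or more members and no value moved.

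With cells holding markers of other classes left out, 36 microglia remained at 24 h. Shares were 27.8% for Lilrb4a, 22.2% for Msr1, 19.4% for Mmp12 and 16.7% for Adam8, 22.2% had 2 or more members, and the log2 ratio was 2.05 for Cd300lf (-0.18 to 4.68), at least 4.79 for Mmp12 and at least 3.47 for Adam8. Without counting Slc1a3, chosen after seeing the data, only Mmp12 moved, to at least 4.82, a bound since its naive count was 0.

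With 2 UMIs to hold a gene, fewer cells hold one by construction: 9.89% for Lilrb4a, 7.77% for Msr1 and 3.53% for Cd300lf. The same is true of cells reduced to 2000 UMIs: 7.39% for Lilrb4a, 4.43% for Msr1, 2.72% for Cd300lf, 1.96% for Mmp12 and 1.97% for Adam8, with 2 or more members in 3.66% and Tmem119 or P2ry12 in 58.5% of these. Among microglia with 9000 UMIs or more, chosen after seeing the data, 16.9% had 2 or more members. In cluster 8 alone the share was 35.4% and in cluster 0 alone 2.75%, and there 100% of them held Tmem119 or P2ry12 (both chosen after seeing the data). Without the 5 cells with most UMIs, 174 UMIs of Lilrb4a, 63 of Msr1, 32 of Cd300lf, 13 of Mmp12 and 26 of Adam8 were left at 24 h. A minimum of 100 UMIs, which tests fewer genes, left 3 members and 111 genes at least 2-fold above naive, and a limit of 1.5-fold gave 1032 genes.

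Each condition is 1 library of pooled mice, so animal, library and time cannot be told apart. The 24 h library holds the fewest microglia, which sets the width of its intervals. No paired analysis was possible because no mouse gave cells to more than 1 library.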

Other observations

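Cluster 11, which also passed for all 14 microglial markers and had a median depth of 33487 UMIs, held several of the 5 genes in a larger share of its cells than the named microglia: 9 of 60 naive cells (15.0%), 10 of 22 at 24 h (45.5%) and 36 of 107 at 3 d (33.6%). Of the 10 at 24 h, 6 held the macrophage marker Mrc1, 3 held the monocyte receptor Ccr2 and 7 held Tmem119 or P2ry12, and 4 had 117, 102, 60 and 49 UMIs of Mrc1 with 0 of Tmem119. In cluster 12, 1 of the 9 cells at 24 h held all 5 genes, with 0 UMIs of Tmem119 and P2ry12 and 6 of Lgals3.

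Between cells with 2 or more members and cells with none at 24 h, genes of the families were called in both directions, beside 7.16% of all genes higher and 9.77% lower. Among other scavenger receptors Scarb1, Cd68 and Cxcl16 were at least 2-fold higher and Mrc1 lower, of 6 tested. Of 9 Ig-like and CD300 receptors Lilr4b was higher and Cd300a, Clec4a2 and Siglece were lower. Of 15 macrophage transcription factors Maf was lower (-1.35) and the others were under 2-fold, among them Cebpb (0.68). Of 5 other ADAM proteases Adamts1 was higher. Of 6 partners of inhibitory receptors the kinase Syk was lower (-1.10).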
